A study of Mus musculus with 9 samples.

Results

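Surface proteins by which developing T cells are staged were followed at the RNA level in mouse lymphomas driven by MYCN and in control CD4 T cells. They were Cd24a, Kit, Cd44, Il2ra, Cd27, Cd28, Thy1 and Cd1d1, taken by gene symbol from a count table of 46078 genes. The 8 symbols matched 9 rows of the table, because Cd28 stands there under 2 Ensembl IDs. The second of these had 0 counts in all 9 libraries, and only the first (ENSMUSG00000026012) was used. All 8 genes passed the filter on low counts. Il2ra passed it through its CD4 libraries, since no lymphoma had more than 6 counts, so it could be called only lower. The same holds for any gene below that is near 0 in the lymphomas, and the reverse for any near 0 in CD4.

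The lymphoma group held 6 thymus libraries of T cell lymphoma induced by MYCN, which carry the sample numbers 34, 53, 56, 70, 72 and 86. The CD4 group held 3 libraries of CD4 T cells from the spleen, numbered 1, 2 and 3. Both groups were of the C57BL/6J strain. The promoter that drives MYCN, the age of the animals, and how the CD4 cells were purified are not given in the sources used here. Whether each library came from a separate animal is not stated either, so that p-values measure the spread between these libraries, which may in part be technical. The comparison asks where the lymphomas stand among thymocyte stages against these CD4 libraries from the spleen. The CD4 libraries also held B cell and CD8 transcripts, as given below. No normal thymocyte library was compared, so a stage is described by its known markers and is not assigned.

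T cell precursors enter the thymus without CD4 or CD8, pass through a stage with both, and leave as mature cells with one of them. In flow cytometry the earliest precursors are known by KIT, the receptor of stem cell factor, and CD44, the hyaluronan receptor. CD25, the interleukin 2 receptor alpha chain encoded by Il2ra, comes up next, KIT and CD44 then go down, and CD25 is lost once a T cell receptor beta chain has been made. CD24 is a small glycolipid-anchored glycoprotein that is abundant on immature thymocytes and is lost as they mature. CD27 and CD28 are costimulatory receptors that come up at the passage of the beta chain checkpoint. THY1 is carried by nearly all mouse T lineage cells, and CD1D1, which presents lipids to natural killer T cells, is carried by double-positive thymocytes and by several other blood cells. In mature cells CD25 marks regulatory and activated T cells, and high CD44 marks cells that have met antigen.

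Reads counted in genes were 11170704 to 15769679 per lymphoma library and 8099960 to 10808828 per CD4 library, which permits a gene with 0 counts to lie at up to 0.184 to 0.360 counts per 1000000 (CPM, counts scaled for library size and composition). Intervals and limits of this kind cover counting error only. No pair of libraries agreed within sampling noise: the chi-square per gene was at least 23.3 (lymphomas 70 and 72, the most alike pair), and 152 or more for every pair with lymphoma 53. T cell genes such as the CD3 chains were present in both groups, and 1 of 8, Cd2, was lower in lymphoma. They summed to 1792 to 3540 CPM in lymphoma and 2930 to 3109 CPM in CD4. The tissue of origin coincides with the group. So does the sex-linked expression. Xist lay at 4.66 to 11.3 CPM in lymphoma and 493 to 582 CPM in CD4. Ddx3y of the Y chromosome lay at 119 to 178 CPM in lymphoma and 0.191 to 0.734 CPM in CD4. Neither tissue nor sex-linked expression can be told apart from the lymphoma itself. In bulk RNA, fewer cells of a type and less RNA per cell cannot be told apart either.

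Of the 8 markers, 1 was higher in lymphoma (Cd24a) and 5 were lower (Il2ra, Cd44, Cd1d1, Cd28 and Cd27) by edgeR's quasi-likelihood test at a Benjamini-Hochberg adjusted p under 0.05. Kit and Thy1 did not pass. Over all 15401 tested genes 46.6% passed, 24.7% higher and 21.9% lower, so a call by itself was common in this comparison. The libraries of the groups did not overlap for any of the 8 markers, with 2 wholly above and 6 wholly below. Over tested genes this was so for 44.9%, 22.6% above and 22.3% below. The median log2 fold change of lymphoma over CD4 was -1.04 for the 8 markers and 0.04 for all tested genes. The plot of CPM by library shows the separation and the few libraries that stood apart.

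**Figure D1:**
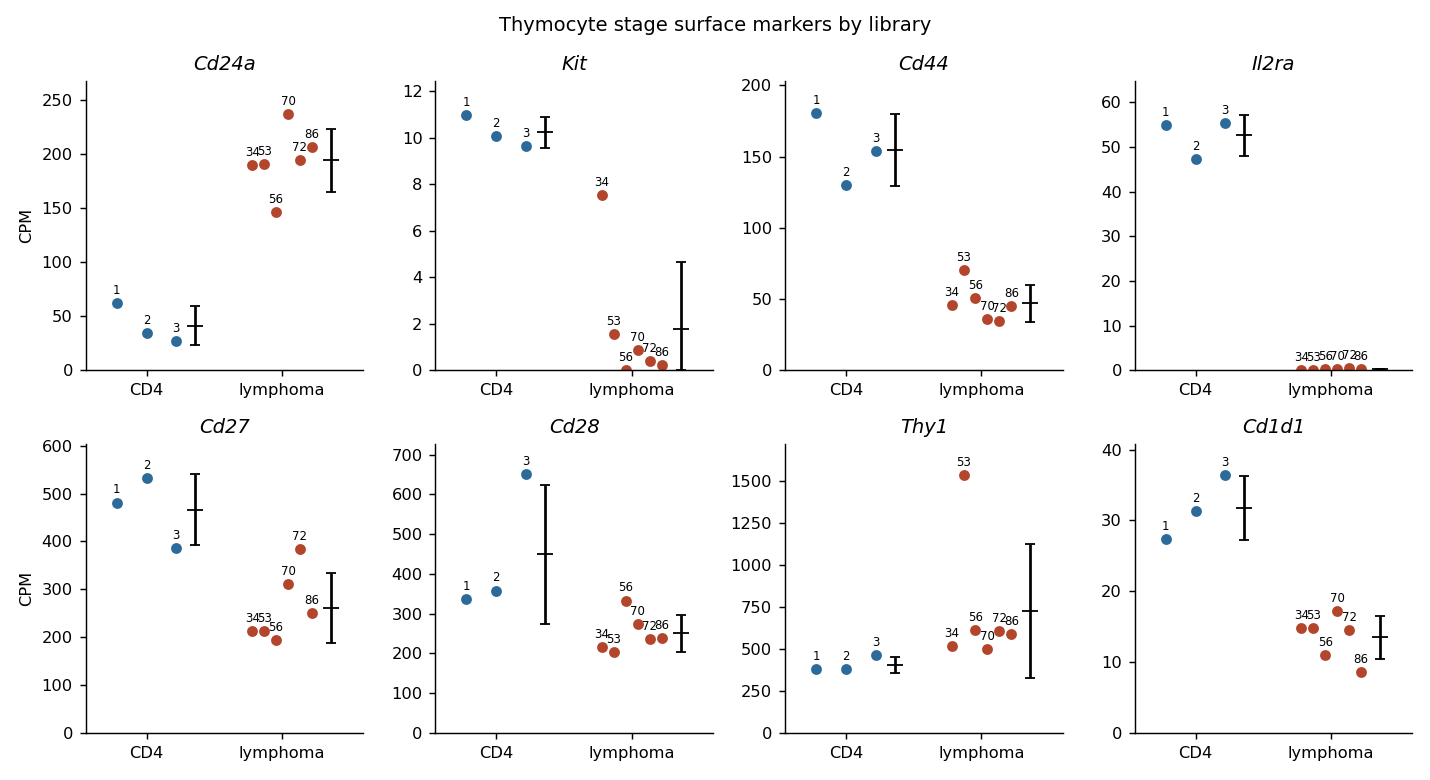
CPM of each marker (vertical axis, linear, from 0) in the CD4 and lymphoma libraries, with library numbers beside the points, and a black tick and bar for the mean and SD (bar cut at 0 for Kit). Cd24a lay at 146 to 237 CPM in lymphoma and 27.3 to 61.8 CPM in CD4, Il2ra lay near 0 in all 6 lymphomas, Kit was high in lymphoma 34 alone of the lymphomas, and Thy1 was highest in lymphoma 53.

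Cd24a (ENSMUSG00000047139, chromosome 10, 43578284 to 43584265, plus strand, GRCm38) was the marker of immaturity that rose. Its lowest, median and highest lymphoma values were 146, 193 and 237 CPM, and the CD4 libraries had 61.8, 34.6 and 27.3 CPM. Every lymphoma lay above every CD4 library, and the lymphomas resembled each other more closely than the CD4 libraries did, with an SD of log2(CPM + 0.5) of 0.23 against 0.60. The means were 194 ± 29.4 CPM (SD, n = 6) and 41.2 ± 18.2 CPM (SD, n = 3), a difference of 2.23 on the log2 scale (SE 0.269, edgeR adjusted p 4.48e-05). Without CD4 1, the highest control, the change was 2.67, and the lowest value with any single library left out was 2.02.

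Cd24a is also known from B cells and from red cell precursors, and markers of both were measured beside it. All 10 B cell markers passed the test as lower in lymphoma, with summed levels of 7.76 to 13.7 CPM there and 1283 to 1542 CPM in CD4, the highest sum being that of CD4 1. Of 9 erythroid markers in the table, 8 were tested and 0 passed with edgeR (adjusted p 0.0582 to 0.992), against 1 higher gene at an unadjusted p under 0.05, with DESeq2 and with limma voom. The sums were 14.0 to 889 CPM in lymphoma and 100 to 359 CPM in CD4. Lymphoma 56 had the lowest erythroid sum and, at 146 CPM, the lowest Cd24a of the lymphomas. Lymphoma 86 had the highest sum and, at 207 CPM, the next to highest Cd24a. Lymphoma 70 had the next to highest sum, at 219 CPM, and the highest Cd24a, at 237 CPM. In lymphoma 72 the sum was 72.2 CPM and Cd24a 194 CPM, against 205 and 191 CPM in lymphoma 53. Of the controls CD4 1 had the highest of both, while CD4 2 had the lowest sum and more Cd24a than CD4 3. The part of these cells in the Cd24a values of either group was not tested.

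The markers of the early double-negative stages were low in the lymphomas. Il2ra (ENSMUSG00000026770, chromosome 2, 11642807 to 11693193, plus strand) was counted 577, 395 and 604 times in CD4 1, 2 and 3. In the lymphomas, taken in the order 34, 53, 56, 70, 72, 86, it was counted 0, 0, 3, 4, 6 and 5 times. No lymphoma exceeded 0.393 CPM, while the CD4 libraries had 55.1, 47.4 and 55.4 CPM. The log2 fold change was -7.92 (SE 0.541, edgeR adjusted p 7.33e-07), the largest of the 8 markers, and it lay between -8.32 and -7.18 over 17 alternatives. The 0 counts permit up to 0.193 CPM in lymphoma 34 and 0.274 CPM in lymphoma 53. A short transcript model on the same strand, Gm37881, lies within Il2ra and took 211 counts over the 9 libraries. Those counts are not part of the Il2ra values, and whether any came from Il2ra transcripts was not tested.

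In the CD4 libraries the level of Il2ra stood beside markers of regulatory T cells. Of 6 such markers, among them Ctla4 of the partner list below, 5 were lower in lymphoma, with sums of 97.3 to 380 CPM in lymphoma and 440 to 575 CPM in CD4. Foxp3, the factor that defines regulatory T cells, was at 68.6, 26.2 and 27.4 CPM in CD4 and at most 0.433 CPM in any lymphoma, with 0 counts in lymphomas 34, 56 and 70. Of these markers, Foxp3, Ctla4 and Lrrc32 passed the filter through CD4 only, so for them only a fall could be called. Ikzf2 did not pass (log2 fold change -0.73, edgeR adjusted p 0.203) and carried most of the lymphoma sum. CD4 1 was highest in Foxp3, while in Il2ra CD4 1 and CD4 3 were nearly level at 55.1 and 55.4 CPM. CD4 2 was lowest in both. Ctla4, at 65.45, 48.48 and 124.9 CPM in CD4 1, 2 and 3, had the same order of controls as Il2ra. The part of regulatory T cells in the Il2ra difference was not tested.

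Cd44 (ENSMUSG00000005087, chromosome 2, 102811141 to 102901665, minus strand) fell as well, but remained well above the detection limit. Lymphomas ranged from 34.5 to 70.4 CPM with a median of 45.3 CPM, and the CD4 libraries had 181, 130 and 154 CPM. Lymphoma 53 was the highest and lymphomas 70 and 72 the lowest, and no lymphoma reached the lowest control. Its log2 fold change was -1.72 (SE 0.219, edgeR adjusted p 6.52e-05), between -1.88 and -1.58 over 18 alternatives. Effector and memory markers, which accompany high Cd44 in mature T cells, were lower at 4 of 8 genes, with sums of 252 to 381 CPM in lymphoma and 734 to 1202 CPM in CD4, and CD4 1 was the highest control in that sum and in Cd44. Their part in the fall of Cd44 was not tested.

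The stretches before the transcription start of Il2ra and Cd44 are shown because these were the early-stage markers with the clearest falls. RefSeq promoter windows (GRCm38.p6) were matched for 4 of the 8 markers, Il2ra, Cd44, Kit and Cd27, and the 250 bases before the start site were used. The motif CACGTG is the E-box bound by the MYC family, AGATAA is bound by factors of the GATA family, and TGTGGT is bound by RUNX factors. All were searched on both strands, and no matches overlapped in these windows. The sequences run 5′ to 3′ on the strand of the gene, with capitals marking a match.
Il2ra, chr2:11642542-11642791, plus strand: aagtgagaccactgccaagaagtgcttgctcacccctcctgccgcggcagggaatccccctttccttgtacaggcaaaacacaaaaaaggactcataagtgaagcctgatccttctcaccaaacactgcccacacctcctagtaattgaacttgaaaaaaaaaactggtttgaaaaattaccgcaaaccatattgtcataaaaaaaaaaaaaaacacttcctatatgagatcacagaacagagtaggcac
Cd44, chr2:102901666-102901915, minus strand: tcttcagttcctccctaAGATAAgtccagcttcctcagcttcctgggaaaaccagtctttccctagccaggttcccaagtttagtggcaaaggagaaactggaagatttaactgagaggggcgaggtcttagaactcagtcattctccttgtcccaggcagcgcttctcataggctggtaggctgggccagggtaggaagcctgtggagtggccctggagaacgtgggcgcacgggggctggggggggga
The capitals in Cd44 mark its 1 match, AGATAA, which 9.99% of 32851 promoter windows of that length hold. The windows of Il2ra, Kit and Cd27 held none of these motifs. CACGTG was in 6.02% and TGTGGT in 14.0% of all windows. A match or its absence describes letters in the reference genome, and no binding was measured.

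Kit (ENSMUSG00000005672, chromosome 5, 75574916 to 75656722, plus strand) was the most uneven of the markers. CD4 1, 2 and 3 had 115, 84 and 105 reads of it. In the same order of lymphomas, the reads numbered 117, 17, 0, 14, 6 and 3. On the CPM scale lymphoma 34 had 7.54 CPM, the other lymphomas 0 to 1.55 CPM, and the CD4 libraries 10.97, 10.1 and 9.63 CPM. All lymphomas lay below all controls, and lymphoma 34 stood nearer to the controls than to the other lymphomas. The log2 fold change was -2.53 (SE 1.082), which did not pass (edgeR adjusted p 0.0781). Without lymphoma 34 it was -4.05 and passed (edgeR adjusted p 0.00248). It passed also with lymphomas 34, 70 and 72 averaged into 1 library (-3.08, edgeR adjusted p 0.0325) and with limma voom (-4.10, adjusted p 0.00228). That average merges the 117 reads of lymphoma 34 with the 14 and 6 reads of lymphomas 70 and 72. In all, Kit passed in 3 of 16 alternatives, and DESeq2 gave it no adjusted p. Only 2.77% of tested genes had a larger SD of log2(CPM + 0.5) among the lymphomas than Kit, whose SD was 1.43.

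Of the 14 listed early precursor genes 5 were highest among lymphomas in lymphoma 34, against 7 in lymphoma 53 and 1 each in lymphomas 70 and 72. The 5 genes were Bcl11a (20.8 against at most 3.47 CPM), Hhex (3.55 against at most 1.23 CPM), Lmo2 (24.0 against at most 6.25 CPM), Erg (3.80 against at most 1.38 CPM) and Spi1 (24.2 against at most 19.6 CPM). Lymphoma 34 had 181 CPM of Mpo, the myeloperoxidase of granulocyte precursors, against 0.196 to 11.5 CPM in the remaining lymphomas. Mpo in the CD4 libraries ranged from 0.480 to 1.38 CPM. Of 10 myeloid markers 4 were lower in lymphoma by edgeR. The 10 together came to 940 CPM in lymphoma 34, second to lymphoma 56 at 2152 CPM, where Kit had 0 counts, and to 52.9 to 185 CPM in the other lymphomas. In CD4 that sum was 481 to 635 CPM. Mast cells also carry KIT. Of 6 mast cell markers 3 were tested and 1 was lower in lymphoma, with sums of 2.01 to 182 CPM in lymphoma, nearly all of it Hdc, and 9.63 to 24.4 CPM in CD4. In lymphoma 34 Fcer1a, Ms4a2, Tpsb2 and Cma1 were at 0. The part of such cells in the Kit values was not tested.

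**Figure D2:**
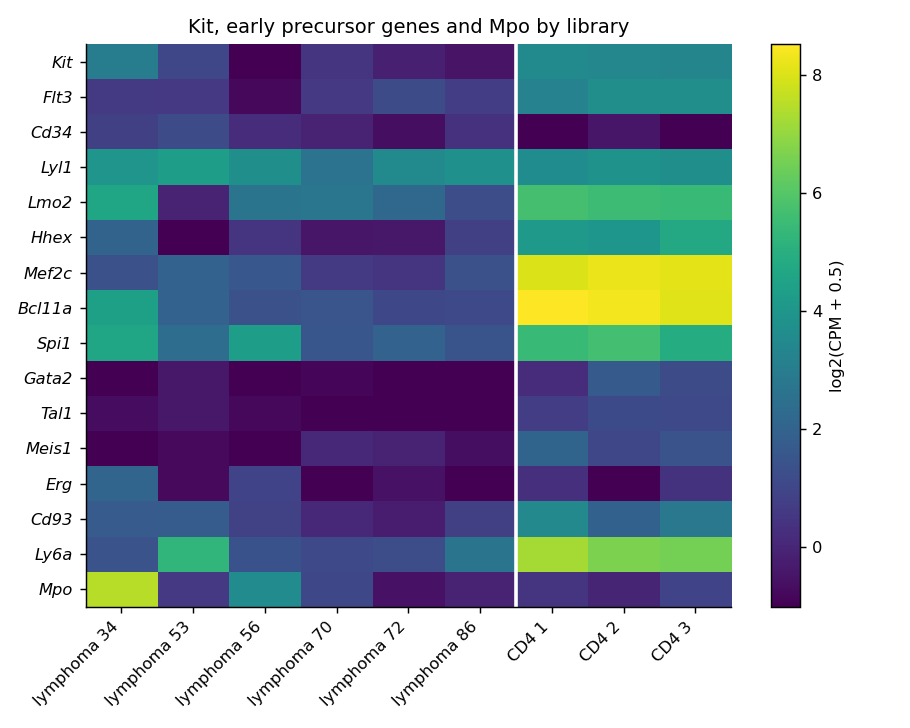
Colour shows log2(CPM + 0.5) of Kit, the 14 listed early precursor genes and Mpo in each library, lymphomas left of the white line and CD4 libraries right of it. Lymphoma 34 differs from the other lymphomas at Kit (7.54 CPM), Bcl11a (20.8 CPM), Hhex (3.55 CPM), Lmo2 (24.0 CPM) and Mpo (181 CPM), and Mef2c and Bcl11a were high in all 3 CD4 libraries.

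The costimulatory receptors, which come up at the beta chain checkpoint and stay on mature cells, were both moderately lower in lymphoma. Cd27 (ENSMUSG00000030336, chromosome 6, 125232622 to 125237010, minus strand) had 193, 232 and 384 CPM as the lowest, median and highest lymphoma values, and 481, 533 and 385 CPM in CD4. The gap between the groups was narrow, since lymphoma 72 at 384 CPM lay just under CD4 3 at 385 CPM. Its log2 fold change was -0.84 (SE 0.219, edgeR adjusted p 0.00791), and it passed in all 18 alternatives, with an adjusted p of at most 0.0485. Vamp1, on the opposite strand, spans the whole of Cd27 and took 6745 counts over the libraries. As the strand setting of the counting is not given, reads of these genes where their exons meet cannot be told apart.

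Cd28 (ENSMUSG00000026012, chromosome 1, 60716800 to 60773359, plus strand) had 205, 237 and 333 CPM as the lowest, median and highest lymphoma values, and 338, 358 and 651 CPM in CD4. Lymphoma 56 at 333 CPM lay just under CD4 1 at 338 CPM, while CD4 3 stood far above both other controls. The log2 fold change was -0.84 (SE 0.223, edgeR adjusted p 0.00870). The call rested on CD4 3: without it the change was -0.46 and did not pass (edgeR adjusted p 0.0934), and it passed in the other 17 alternatives.

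Thy1 (ENSMUSG00000032011, chromosome 9, 44043384 to 44048579, plus strand), the pan-T cell marker, had 501, 598 and 1535 CPM as the lowest, median and highest lymphoma values and 381, 378 and 463 CPM in CD4. The highest value was that of lymphoma 53, and the other 5 lymphomas lay between 501 and 611 CPM, all above the controls. Its log2 fold change was 0.83 (SE 0.347), which did not pass (edgeR adjusted p 0.0690). Without lymphoma 53 the change was smaller, at 0.47, but passed (edgeR adjusted p 0.00897). It also passed without lymphoma 34 (0.95, edgeR adjusted p 0.0457), without lymphoma 70 (0.96, 0.0415), with lymphomas 34, 70 and 72 averaged (1.03, 0.0405) and with DESeq2 (0.78, adjusted p 0.0476).

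Cd1d1 (ENSMUSG00000028076, chromosome 3, 86995834 to 86999441, minus strand) was lower in lymphoma. Its lowest, median and highest lymphoma values were 8.66, 14.7 and 17.2 CPM, and the CD4 libraries had 27.4, 31.3 and 36.4 CPM. No lymphoma reached the lowest control, and lymphomas 86 and 56 were the lowest. The log2 fold change was -1.23 (SE 0.240, edgeR adjusted p 0.00134), between -1.33 and -1.10 over 18 alternatives. Cd1d1 is also known from B cells, whose markers were high in all CD4 libraries as given above, and their part in the difference was not tested. Its paralogue Cd1d2 had 5 to 42 counts per lymphoma and 6 to 25 counts per CD4 library, with 41 and 42 in lymphomas 70 and 72. Its log2 fold change was 0.00 (SE 0.860, edgeR adjusted p 0.9996). Reads that align to more than 1 place were in no gene's count, so these paralogues may be undercounted. Such reads made up 16.1 to 18.6% of all reads in lymphoma and 11.6 to 14.0% in CD4. Whether the loss at these 2 genes differed between the groups was not tested.

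**Figure D3:**
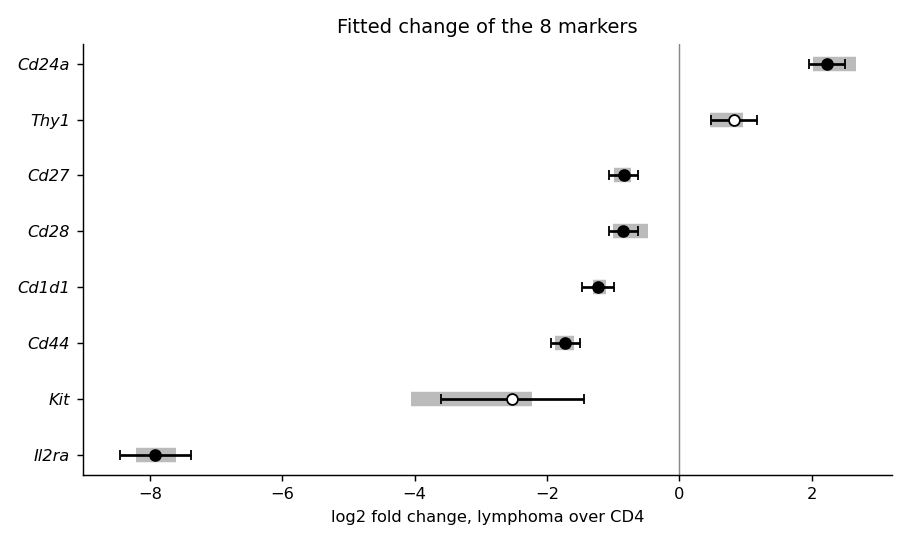
Log2 fold change of lymphoma over CD4 (horizontal axis) for each marker, with bars for 1 SE, filled points for an edgeR adjusted p under 0.05 and grey bands for the range when each library in turn was left out. The band of Kit reached from -4.05 to -2.23 and that of Cd28 from -0.996 to -0.46, while Cd24a kept 2.02 or more.

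Read together by library, the markers formed 1 combination in all lymphomas: high Cd24a, reduced Cd44 and next to no Il2ra. The groups did not overlap at any of these 3 markers, so the combination and the ratio below restate those differences. The ratio of Cd24a to Cd44 in CPM was 0.342, 0.266 and 0.178 in CD4 1, 2 and 3. In the lymphomas, again in the order 34, 53, 56, 70, 72, 86, it was 4.15, 2.71, 2.90, 6.65, 5.63 and 4.62. As percentages of the CD4 mean, lymphoma values were 355 to 575% for Cd24a, 22.3 to 45.5% for Cd44, 0 to 0.746% for Il2ra, 41.4 to 82.3% for Cd27 and 45.5 to 74.2% for Cd28. For Cd1d1 they were 27.3 to 54.1%, for Thy1 123 to 377%, and for Kit 0 to 15.2% in 5 lymphomas and 73.7% in lymphoma 34. Lymphomas 70 and 72 had the lowest Cd44 and the highest Cd27, at 35.7 and 34.5 CPM of Cd44 and 311 and 384 CPM of Cd27. Lymphomas 56 and 86, which alone of the lymphomas carried the T cell receptor delta constant region Trdc at 317 and 260 CPM, had the lowest Cd1d1, at 10.99 and 8.66 CPM, and Kit at 0 and 3 counts. Cd24a was 146 CPM in lymphoma 56, below the 190 to 237 CPM of the lymphomas without Trdc, and 207 CPM in lymphoma 86, within it.

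Ligands and binding partners of the markers were examined next, of which 19 of 20 listed genes were tested. Of these 3 were higher and 8 lower in lymphoma, with a median log2 fold change of -0.72. Cd70, the ligand of CD27, had 0 counts in all libraries. Siva1, a death-promoting protein that binds the cytoplasmic tail of CD27, rose by 2.96 (SE 0.300, edgeR adjusted p 1.27e-05) from 11.8 to 28.6 CPM in CD4 to 127 to 215 CPM in lymphoma. Traf5, an adaptor of CD27 signalling, fell by 3.13 (SE 0.250, edgeR adjusted p 2.21e-06), and Traf2 had a change of -0.67 (edgeR adjusted p 0.0559) that passed in 7 of 18 alternatives.

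For the interleukin 2 receptor, the shared gamma chain Il2rg fell by 1.35 (SE 0.133, edgeR adjusted p 1.03e-05), from 306 to 360 CPM in CD4 to 117 to 143 CPM in lymphoma. The beta chain Il2rb had a change of -0.72 (SE 0.291, edgeR adjusted p 0.0621), with lymphomas at 49.4 to 108 CPM overlapping the controls at 88.9 to 177 CPM, and it passed in 7 of 18 alternatives. Il2 itself stood at 0.81 (edgeR adjusted p 0.291), at 1.81 to 8.49 CPM in lymphoma and 1.32 to 2.94 CPM in CD4. Thus the alpha and gamma chains both fell, and the lymphomas kept 49.4 CPM or more of the beta chain.

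Both other CD28 family receptors on the partner list, Icos and Ctla4, fell. Icos, a costimulator of activated T cells, fell by 6.76 (SE 0.528, edgeR adjusted p 4.29e-06), and Ctla4, the inhibitory receptor, fell by 9.30 (SE 0.551, edgeR adjusted p 3.79e-07), with -9.95 without lymphoma 86. Ctla4 had at most 5 counts in any lymphoma. Both also have a second row in the table with 0 counts throughout. Of their ligands Cd86 fell by 3.50 (SE 0.547, edgeR adjusted p 0.000297), with -4.17 without lymphoma 53, and Cd80 stood at -1.81 (edgeR adjusted p 0.152). Cd86 and Cd80 are genes of antigen-presenting cells, and B cell markers were higher in the controls as given above.

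Partners of the remaining markers moved in both directions. Siglecg, a lectin that binds CD24 and is mainly made by B cells, fell by 7.22 (SE 0.353, edgeR adjusted p 1.34e-07), from 203 to 229 CPM in CD4 to 0.655 to 3.01 CPM in lymphoma. B2m, the light chain that CD1D1 shares with class I molecules, fell by 0.87 (SE 0.187, edgeR adjusted p 0.00253). Mttp, which loads lipid onto CD1D, stood at -0.09 (edgeR adjusted p 0.815). Kitl, the ligand of KIT, stood at 0.43 (SE 1.74, edgeR adjusted p 0.860) and reached no more than 3.38 CPM, in lymphoma 53. Of the linkers between CD44 and actin, Msn fell by 1.13 (SE 0.156, edgeR adjusted p 0.000126), Rdx rose by 0.70 (SE 0.174, edgeR adjusted p 0.00586) and Ezr stood at 0.03 (edgeR adjusted p 0.905). Hmmr, a second hyaluronan receptor that is also a spindle protein of dividing cells, rose by 3.65 (SE 0.369, edgeR adjusted p 1.24e-05).

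The markers were set beside genes known for each thymocyte stage. Of 14 early precursor genes 13 were tested, and 10 were lower and 0 higher in lymphoma by edgeR. At an unadjusted p under 0.05 there was 1 higher gene, with DESeq2 1 and with limma voom 0. Their median log2 fold change was -3.47. Tal1 and Meis1, both called lower, passed the filter through CD4 only, with at most 3 and 9 counts in any lymphoma. For them only a fall could be called. Cd34 passed the filter through lymphoma only, with at most 2 counts in CD4. The largest falls were Mef2c at -7.14 (SE 0.352, edgeR adjusted p 1.36e-07), Bcl11a at -5.90 (SE 0.867, 0.000560) and Hhex at -4.23 (SE 0.872, 0.00225). Without lymphoma 34 those of Bcl11a and Hhex were -7.14 and -5.16. These 3 transcription factors are made by early precursors and also by B cells, whose markers summed to 1283 CPM or more in each CD4 library. Flt3, an early receptor tyrosine kinase related to KIT that the rule for named genes did not pick, stood at 0.0728 to 1.77 CPM in lymphoma and 8.78 to 12.5 CPM in CD4. Lyl1, Erg and Cd34 did not pass. Gata2 was not tested, with at most 3 counts per lymphoma and a ratio of CD4 to lymphoma of 36.04 (exact 95% counting interval 13.2 to 137).

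Genes of the beta selection stage differed in both directions. Of 14 listed genes 10 could be tested. Lymphoma was higher at 2 and lower at 6, with a median log2 fold change of -1.57. These 8 calls became 5 (1 higher, 4 lower) without CD4 2 and 4 (1 higher, 3 lower) without CD4 3. Not tested were Ptcra, which encodes the pre-T cell receptor alpha chain, the recombinase genes Rag1 and Rag2, and the Notch target Nrarp, none of which exceeded 2 counts in any library. Dtx1, a Notch target, fell by 6.41 (SE 0.382, edgeR adjusted p 3.98e-07), from 152 to 201 CPM to 1.24 to 5.02 CPM. B cell markers were higher in the controls as given above, and the part of other cells in the fall of Dtx1 was not tested. Dntt, the terminal transferase, fell by 4.12 (SE 0.750, edgeR adjusted p 0.000844), from 6.00 to 12.5 CPM in CD4 to at most 1.19 CPM in lymphoma. Notch3 fell by 2.83 (SE 0.882, edgeR adjusted p 0.0199), a call lost in 4 of 17 alternatives: without CD4 2 (0.0664), without CD4 3 (0.0502), with no filter on low counts and with lymphomas 34, 70 and 72 averaged. Dntt and Notch3 passed the filter through CD4 only, so for them only a fall could be called. Among factors of T lineage commitment, Tcf7 rose by 0.90 (SE 0.175, edgeR adjusted p 0.00130). Gata3 rose by 0.93 (SE 0.339, edgeR adjusted p 0.0415), with lymphoma 53 at 80.4 CPM below all controls, and its call was lost in 13 of 18 alternatives, among them every fit without 1 of CD4 1, 2 and 3 or without 1 of lymphomas 34, 56, 70 and 72 (adjusted p 0.05004 to 0.140).

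For the double-positive stage 14 of 15 genes could be tested. Lymphoma was higher at 3 and lower at 6, with a median of -1.65. Mns1, a flagellar protein also known from double-positive thymocytes, rose by 2.81 (SE 0.331, edgeR adjusted p 3.81e-05), and the transcription factor Ets2 rose by 1.56 (SE 0.321, edgeR adjusted p 0.00184). Aqp11, an aquaporin, rose by 3.82 (SE 1.10, edgeR adjusted p 0.0168), with 18.6 to 52.1 CPM in 5 lymphomas, 0.365 CPM in lymphoma 53 and 1.74 to 2.64 CPM in CD4. The call of Aqp11 was lost in 5 of 17 alternatives: without CD4 1 (0.0629), without CD4 2 (0.0537), without CD4 3 (0.0696), with no filter on low counts and with limma voom (adjusted p 0.317). Satb1, a chromatin organiser of thymocytes and naive T cells, fell by 5.54 (SE 0.200, edgeR adjusted p 2.75e-08), from 879 to 1416 CPM to 18.5 to 31.6 CPM. The chemokine receptor Ccr9 fell by 4.01 (SE 0.250, edgeR adjusted p 4.03e-07) and Slamf1 fell by 3.59 (SE 0.389, edgeR adjusted p 2.08e-05).

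The coreceptors that define the stage are given although the rule for named genes did not pick them. Cd4 lay at 6.04 to 71.9 CPM in lymphoma and 199 to 263 CPM in CD4. Cd8a lay at 0.0645 to 1.53 CPM in 5 lymphomas, at 29.4 CPM in lymphoma 53 and at 25.6 to 31.8 CPM in CD4, and Cd8b1 at 0 to 0.735, 47.6 and 35.9 to 44.9 CPM in the same order. Lymphoma 53, which had the highest Thy1 and Cd44, was also the only lymphoma with Cd8a in the range of the CD4 libraries, and its Cd8b1 lay above that range. That range is not one of pure CD4 T cells, since the CD4 libraries held these CD8 transcripts and 1283 to 1542 CPM of B cell markers. Which cells the CD8 transcripts came from was not tested.

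All 14 mature T cell genes were tested and lower in lymphoma, with a median of -3.78. That naive T cell genes are low in these lymphomas was known when the list was made, so its direction is not independent evidence. S1pr1, the receptor by which mature cells leave the thymus, fell by 5.80 (SE 0.311, edgeR adjusted p 2.05e-07), from 350 to 467 CPM to 4.45 to 11.5 CPM. Ms4a4b fell by 5.13 (SE 0.674, edgeR adjusted p 0.000233) and Il6ra, the interleukin 6 receptor, fell by 5.11 (SE 0.466, edgeR adjusted p 1.20e-05).

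The 18 other surface antigens of thymocytes could all be tested. Lymphoma was higher at 4 and lower at 10, with a median of -1.36. Tfrc, the transferrin receptor, rose by 1.97 (SE 0.212, edgeR adjusted p 1.95e-05) and Slc3a2, the heavy chain of the CD98 amino acid transporter, rose by 1.21 (SE 0.195, edgeR adjusted p 0.000373). Both are known from dividing cells. Cxcr4, which holds early thymocytes in the thymic cortex, rose by 1.11 (SE 0.353, edgeR adjusted p 0.0232), a call lost without CD4 1 (0.0871) and without CD4 2 (0.0650). Ly6d, an antigen of early B cells and plasmacytoid dendritic cells as well as thymocytes, fell by 6.76 (SE 0.485, edgeR adjusted p 1.61e-06). Cd7 fell by 5.45 (SE 0.717, edgeR adjusted p 0.000111), with -6.16 without lymphoma 53, and it passed the filter through CD4 only. The tetraspanin Cd53 fell by 4.47 (SE 0.708, edgeR adjusted p 0.000725).

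**Figure D4:**
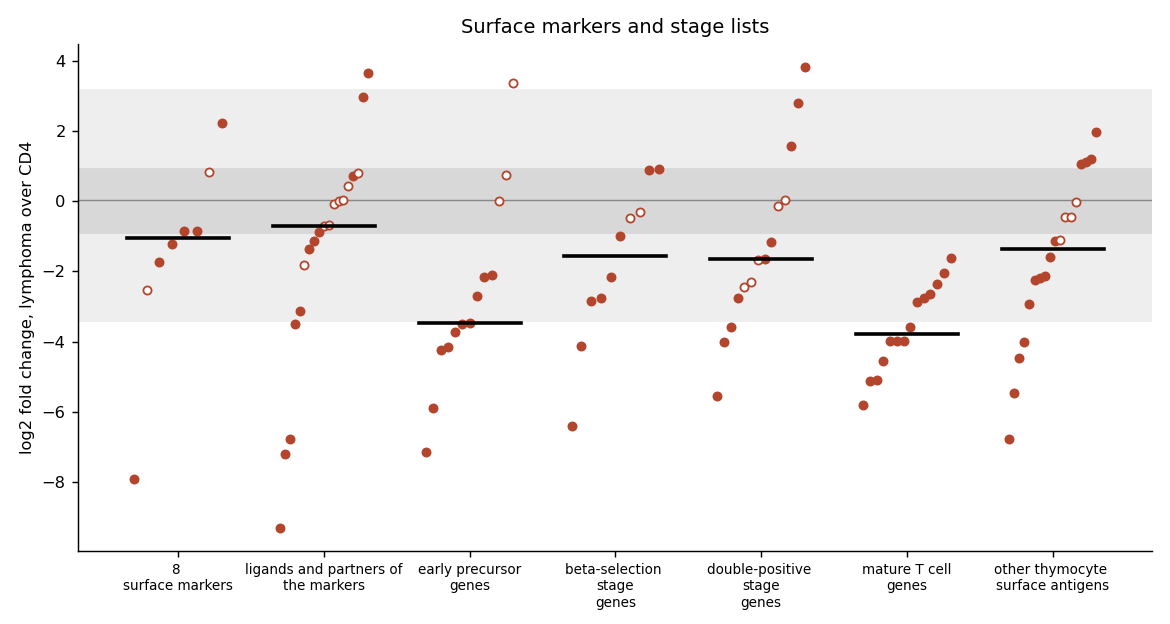
Each point is the log2 fold change of 1 tested gene (lymphoma over CD4, vertical axis), grouped by list, filled where the edgeR adjusted p was under 0.05, with a black line at the list's median. Grey bands hold the middle 50% (-0.92 to 0.92) and 90% (-3.41 to 3.17) of all tested genes. All 14 mature T cell genes lay below 0, while the 8 surface markers held both Cd24a at 2.23 and Il2ra at -7.92.

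The markers of other cell types not given so far moved as follows. Of 8 gamma-delta T cell markers 5 were higher and 2 lower by edgeR, and 3 higher and 2 lower with limma voom. Their sums were 582 to 1905 CPM in lymphoma and 312 to 397 CPM in CD4. Tcrg-C1, Tcrg-C2 and Tcrg-C4 lay above all controls in every lymphoma. Trdc was at 0.193 to 0.589 CPM in the lymphomas other than 56 and 86. Of 6 NK cell markers 1 was higher and 3 lower, with sums of 316 to 803 CPM in lymphoma and 142 to 155 CPM in CD4. Gzma, a granzyme, made up most of the lymphoma sums at 298 to 785 CPM, and lay at 63.3 to 73.9 CPM in CD4. No lymphoma had a count of Ncr1, which defines NK cells (0 counts, at least 41.3-fold lower than in CD4), taking 3 counts per library as its limit. Plasmacytoid dendritic cell markers were lower at 6 of 6 genes, at 95.8 to 368 CPM in lymphoma and 831 to 854 CPM in CD4. Of 10 stromal and thymic epithelial markers 5 were tested, 2 were higher and 1 lower, with sums of 92.3 to 170 CPM in lymphoma and 214 to 231 CPM in CD4. Of the 10, Dcn, Krt5, Krt8 and Foxn1 were at 0 in all CD4 libraries.

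**Figure D5:**
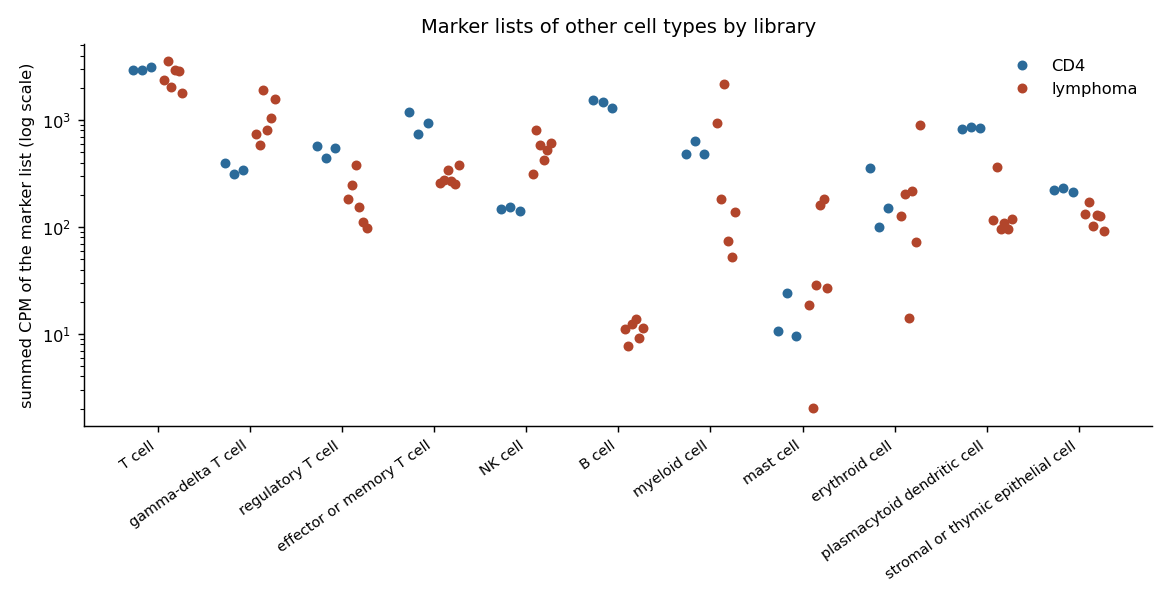
Summed CPM of each marker list (vertical axis, log scale) in every library, CD4 in blue and lymphoma in red. B cell markers lay at 1283 to 1542 CPM in CD4 and 7.76 to 13.7 CPM in lymphoma, and myeloid markers were highest in lymphomas 56 (2152 CPM) and 34 (940 CPM).

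For each marker the 3 genes with the most similar profile were sought among 8182 genes, by the root mean square difference of log2 CPM over the 9 libraries after centring each gene. The nearest to Cd24a were Polq, E2f8 and Ube2t, at 0.21, 0.22 and 0.22 log2 units, with log2 fold changes of 2.42, 2.50 and 2.26. Those of Cd44 were Daam1, Bin1 and Saraf at 0.18, 0.18 and 0.19, those of Cd1d1 were Zc3h7a, Dcaf6 and Ppm1h at 0.11, 0.12 and 0.16, those of Cd27 were Ubac2, Slc4a2 and Fam193a at 0.16, 0.17 and 0.18, and those of Cd28 were Phyh, Aida and Fbrsl1 at 0.16, 0.16 and 0.18. Thy1 was matched most closely, by Manf at 0.09, followed by Zfpm1 and Tnpo2 at 0.16 each, and these 3 genes were likewise highest in lymphoma 53. The low counts of Il2ra and the uneven values of Kit had no close match: the nearest were Inpp4b, Cr2 and Phxr4 at 0.66, 0.85 and 0.86 for Il2ra, and Napsa, Lrrk1 and Wdfy4 at 1.06, 1.085 and 1.11 for Kit. Cr2 is a B cell gene. The genes nearest to Kit were all highest of the lymphomas in lymphoma 34, with Napsa at 34.4 CPM, Lrrk1 at 11.3 CPM and Wdfy4 at 15.1 CPM.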

How the data were processed

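Transcript 3′ ends were sequenced from 6 lymphoma and 3 CD4 libraries. The authors deposited raw counts of reads per gene in 1 table, and the submitters' processing notes name FastQC, HISAT2, SAMtools, HTSeq, mm10 and GRCm38, without versions or roles. Whether counting used strand is not given in the sources used here. The table's 5 summary rows, such as reads with no gene or several alignments, were left out of library sizes: 38.7 to 49.1% of reads were in genes for lymphoma and 27.8 to 35.1% for CD4.

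Counts were scaled by TMM, and CPM are counts per 1000000 of the scaled library size. Genes passing filterByExpr (minimum count 10) were fitted with edgeR 4.0.16 (R 4.3.3, robust quasi-likelihood), and p-values were adjusted by Benjamini-Hochberg over 15401 genes, with a threshold of 0.05. Fold changes are log2 of lymphoma over CD4. On simulated data with 14799 genes for this comparison, 48.4% of changes of 1.5 and 75% of changes of 3 (log2) were recovered. A far smaller share of genes was changed there than the 46.6% that passed in the data, so these rates need not hold here.

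The markers and lists were chosen with earlier results of these data known. Named were all 8 markers, all tested ligands and partners, the 3 largest rises and falls passing the test in each stage list, and the 3 genes most alike in profile to each marker (average log2 CPM at least 3, without receptor segments and names starting Gm or ending Rik). Genes named outside this rule, among them Flt3, Mpo, the coreceptors and marker genes of other cells, were picked after their values were seen. The promoter motifs were chosen after the sequences had been seen. Alternatives were RLE, upper quartile or no scaling, other count filters, a prior count of 2, DESeq2 1.42.0 and limma 3.58.1 (voom). Others were lymphomas 34, 70 and 72 averaged, a threshold of 0.01 for counts of genes, and each library left out. The averaging was set because earlier work on these data found these lymphomas alike. By the chi-square per gene, 70 and 72 were the closest pair (23.3). Lymphoma 34 was nearer to 56 (29.0) than to 70 (38.6) or 72 (39.4). Gene positions are from GENCODE for GRCm38.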

Additional observations from a re-analysis of the deposited data

Results flagged for a closer look

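Of 74 named genes examined, 19 had a lymphoma whose value lay far from the other 5, by Dixon's criterion for 6 samples. For normally distributed values chance gives about 1 in 20, or 3.7 here. The criterion was applied to CPM without logs, and most flagged values were at the high end, so that rate may not hold. These genes are also not independent of each other, since several were chosen for resembling Kit or Thy1.

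Lymphoma 34 stood apart at Kit with 7.54 CPM, where the next lymphoma had 1.55 CPM, and at Bcl11a with 20.8 CPM, Hhex with 3.55 CPM, Napsa with 34.4 CPM and Wdfy4 with 15.1 CPM. In all 5 it was the highest lymphoma.

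Lymphoma 53 stood apart at Thy1 with 1535 CPM, where the next lymphoma had 611 CPM. It was also the highest at Manf with 183.6 CPM, Zfpm1 with 177.9 CPM, Tnpo2 with 187.5 CPM, Ezr with 392.5 CPM, Cd86 with 5.30 CPM, Dtx1 with 5.02 CPM, Kitl with 3.38 CPM, Siglecg with 3.01 CPM and Cd7 with 2.37 CPM. It was the lowest at Hmmr with 49.9 CPM and Rdx with 243.7 CPM, where the next lymphomas had 93.6 and 339.6 CPM.

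Lymphoma 86 stood apart at Siva1 with 215.1 CPM, where the next lymphoma had 158.5 CPM, and at Ctla4 with 0.361 CPM, which was 5 counts.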

How the results depend on the processing

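For the 8 markers, 132 of 141 alternative values kept the direction and the side of the threshold, 8 passed newly (Kit in 3 and Thy1 in 5) and 1 was lost (Cd28 without CD4 3). Between 5 and 8 markers passed, 5 of them without CD4 3 and 8 without lymphoma 34 and with lymphomas 34, 70 and 72 averaged. Over all 74 named genes 1220 of 1308 values were kept, 55 were lost, 33 passed newly and 0 were reversed. Early precursor genes passing numbered 4 of 5 tested with at least 10 counts in every library, a filter that removes any gene with fewer in 1 library (Kit and Il2ra among them), 5 at an adjusted p under 0.01, and 7 to 10 with a library left out. Of beta selection genes, 8 in the fit reported, 5 passed with no filter on low counts, 5 with those lymphomas averaged, 4 at an adjusted p under 0.01, and 4 to 9 with a library left out (5 without CD4 2, 4 without CD4 3), and the cause was not tested. Over all genes the calls ran from 4915 at an adjusted p under 0.01 to 8137 without lymphoma 53, against 7174. Gene medians lay between -0.06 and 0.04 under the 4 scalings. No paired analysis was possible because the groups share no replicate numbers. Depth limits Il2ra, Kit and Ctla4, where lymphomas had few or no counts.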
